A study of Rattus norvegicus with 20 samples.

Results

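The 9 genes described here encode carriers that move amino acids across the membranes of kidney tubule cells, and they were read in whole rat kidney after cyclosporine A or tacrolimus. They were taken by symbol (Slc3a1, Slc3a2, Slc7a5, Slc7a7, Slc7a8, Slc7a9, Slc7a12, Slc7a13 and Slc6a19) and carried by gene identifier through both deposited tables, 9 of 32521 genes listed in both. The choice was made with values in view: Slc7a7 because it was higher with cyclosporine A, Slc7a13 because it is very abundant. The cyclosporine A contrast of the members is therefore given as a description, and tests are read for tacrolimus alone. All 9 members passed the filter on low values in both tables.

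Amino acids filtered by the glomerulus are taken up at the apical (urine-facing) side of the proximal tubule and handed to the blood at the basolateral side. Most of the carriers work as pairs: a heavy chain with a single membrane span brings a light chain, which does the transport, to the membrane. Slc3a1 is the heavy chain of the apical side, where it serves Slc7a9, the cystine and dibasic amino acid exchanger that is defective with it in cystinuria, and Slc7a13, an aspartate, glutamate and cystine carrier of the last proximal tubule segment (S3). Slc3a2 is the heavy chain of the basolateral side, where it serves Slc7a7, the exporter of lysine and arginine that is lost in lysinuric protein intolerance, and Slc7a8, a neutral amino acid exchanger of the early segments; it also serves Slc7a5, the leucine carrier of growing cells. Slc6a19, the sodium-driven neutral amino acid carrier lost in Hartnup disorder, works apically in the early proximal tubule.

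Kidneys came from adult male Wistar rats, 10 to 12 weeks old and labelled wild type, after 28 days of drug or vehicle from a subcutaneous osmotic minipump. Cyclosporine A was given to 4 samples, with a target trough that the design text writes as 3 mg/ml, a unit that could not be checked here, and its saline vehicle to 4. Tacrolimus, with a plasma trough of 3.5 ng/ml as the target, was given to 6, and the mixture it was dissolved in, 25% DMSO with 75% polyethylene glycol (DMSO/PEG), to 6. Both drugs are calcineurin inhibitors, immunosuppressants that can harm the kidney, and the study compared that harm. The labels number the replicates without saying that each is a separate animal, so a p-value measures the spread between these libraries, which may be technical. Each drug shares a table with its own vehicle, so drug, vehicle and table cannot be told apart when the tables are set side by side. In bulk tissue, fewer cells of a type and less RNA per cell cannot be told apart either.

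The 2 tables differ in ways that touch every member. A library of the cyclosporine A table held 30468747 to 34308797 fragments in genes, and one from the tacrolimus experiment held 31670202 to 39358485. Mitochondrial genes took 49.7% to 68.6% of them with saline, 80.2% to 90.8% with cyclosporine A and 10.5% to 15.9% in the tacrolimus table. Nuclear genes were left with 10283948 to 17256646 fragments per saline library and 2905823 to 6549242 per cyclosporine A library. The unit is FPKM, in which a gene's fragments are divided by its length and by a measure of depth, the library total in the cyclosporine A table and a total adjusted by median-of-ratios factors in the tacrolimus table. For the cyclosporine A table they are given after rescaling, which sets the median gene equal between libraries, and as deposited where that changes the reading. Rescaled FPKM hides any shift shared by all nuclear genes, and deposited FPKM includes the mitochondrial share.

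The labelled tissue, entire kidney, was checked against its defining markers before the members were read. In the DMSO/PEG group the markers of the first proximal tubule segment (S1) were abundant, with a mean of 144 FPKM for Slc5a2, the glucose carrier of that segment, and 71.4 FPKM for Slc5a12, a lactate carrier. In the saline group the deposited means were 0.440 and 0.249 FPKM, and Slc5a2 rested on 46, 43, 11 and 21 fragments per library. The third S1 marker, the glucose carrier Slc2a2, was less far apart, at 4.23 FPKM with saline and 44.8 with DMSO/PEG. Of the S3 markers, Slc22a7, an organic anion carrier, was higher with saline, at 6.91 against 4.15 FPKM. The other 3 had lower deposited means there: the glucose carrier Slc5a1 at 4.598 against 10.6, the monocarboxylate carrier Slc5a8 at 3.595 against 18.6, and the sterol hydroxylase Cyp7b1 at 1.55 against 2.21. The median gene was also lower with saline. Relative to it, on the log2 scale, Slc5a8 lay at -1.29, Slc5a1 at -0.12, Cyp7b1 at 0.57 and Slc22a7 at 1.82. Podocyte genes, a list added after the values were seen, were also low with saline: Synpo, an actin-associated gene of podocyte foot processes, averaged 0.791 FPKM against 11.5. The libraries of the cyclosporine A table thus held little S1 and podocyte RNA for an entire kidney, in both of its groups, and why was not tested.

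Promoter sequences are shown for Slc3a1 and Slc7a12, members that stayed abundant in both tables, and for Slc7a7, the member that differed most between them. They are RefSeq sequences of the GRCr8 build, 250 bases before to 50 bases after the transcript start, written 5′ to 3′ on the gene's strand, which is the minus strand of GRCr8 for all 3 (the deposited table, whose positions are of another build, has Slc3a1 on the plus strand): chr6:15394700-15394999 for Slc3a1, chr2:88868054-88868353 for Slc7a12 and chr15:31835634-31835933 for Slc7a7. Capitals mark every match, on either strand, to CAAAGTCCA (a site of HNF4, a nuclear receptor of the proximal tubule), GTTAAT (a half-site of HNF1) and TATAAA (the TATA box); TGATGNAA, the amino acid response element bound by ATF4, was searched as well. Matches to TATAAA on opposite strands can overlap and then form 1 run.
Slc3a1: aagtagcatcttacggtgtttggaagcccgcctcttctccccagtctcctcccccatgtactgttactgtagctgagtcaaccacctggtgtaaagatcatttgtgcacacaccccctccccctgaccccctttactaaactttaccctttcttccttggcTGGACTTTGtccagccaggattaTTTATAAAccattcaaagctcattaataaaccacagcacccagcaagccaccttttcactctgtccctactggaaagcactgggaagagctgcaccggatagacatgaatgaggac
Slc7a12: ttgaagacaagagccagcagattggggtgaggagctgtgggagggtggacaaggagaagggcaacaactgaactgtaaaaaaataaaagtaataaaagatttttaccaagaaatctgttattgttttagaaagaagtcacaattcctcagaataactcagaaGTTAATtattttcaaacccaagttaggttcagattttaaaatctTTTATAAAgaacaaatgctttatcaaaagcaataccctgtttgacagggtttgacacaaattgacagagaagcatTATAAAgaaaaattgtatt
Slc7a7: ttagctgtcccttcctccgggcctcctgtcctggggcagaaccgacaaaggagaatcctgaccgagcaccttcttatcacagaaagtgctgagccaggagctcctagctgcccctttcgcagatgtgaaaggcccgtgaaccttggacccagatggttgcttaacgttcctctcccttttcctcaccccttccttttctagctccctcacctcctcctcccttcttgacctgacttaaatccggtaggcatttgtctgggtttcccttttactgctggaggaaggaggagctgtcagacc
Of 33469 RefSeq promoters of this length, 0.391% held CAAAGTCCA, 7.45% GTTAAT, 14.2% TATAAA and 3.98% TGATGNAA. RefSeq promoters were found for 8 of the 9 members, all but Slc7a13. Slc3a1 was the only one of the 8 with CAAAGTCCA, at bases -89 to -81 from the start, with TATAAA beginning at -64. GTTAAT was matched in Slc7a12, at -88 to -83, and in Slc6a19, at -116 to -111. TATAAA was also matched in Slc7a12, in Slc6a19, at -30 to -25, and in a promoter of Slc3a2, at -247 to -242. Slc7a7 held none of the 4 motifs, nor did Slc7a5, Slc7a8 and Slc7a9, and TGATGNAA was matched in no member. Bases G and C made up 33% of the Slc7a12 promoter, 49% of that of Slc3a1 and 54.7% of that of Slc7a7, against a median of 51.7% over all promoters. A match is a string of letters and was not tested as a binding site.

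Slc3a1 and Slc7a13 led the members in every group. With DMSO/PEG vehicle the order of mean FPKM was Slc3a1 (1265), Slc7a13 (1125), Slc7a7 (257), Slc3a2 (224), Slc7a9 (131), Slc7a12 (79.6), Slc6a19 (69.7), Slc7a8 (52.4) and Slc7a5 (2.94). Slc7a13 ranked 34 among 22582 nuclear genes there, and 9 among 18857 with saline. Neighbours overlapped in their library ranges for Slc3a1 and Slc7a13, for Slc7a7 and Slc3a2, and for Slc7a12 and Slc6a19, so the ranges do not separate those pairs. Within a library, Slc3a1 was above Slc7a13 and Slc7a7 above Slc3a2 in 6 of 6 vehicle libraries, and Slc7a12 above Slc6a19 in 5 of 6. With saline the order of mean rescaled FPKM was Slc7a13 (1063), Slc3a1 (659), Slc7a12 (61.5), Slc3a2 (12.2), Slc7a9 (10.6), Slc7a7 (1.85), Slc7a8 (0.753), Slc6a19 (0.746) and Slc7a5 (0.495). Here Slc3a2 overlapped Slc7a9, and Slc7a8, Slc6a19 and Slc7a5 overlapped one another in turn. The basolateral pair of Slc7a7 and Slc3a2, next to each other and above Slc7a9 with DMSO/PEG, stood apart with saline, where Slc7a7 was rank 7884 against rank 306.

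**Figure D1:**
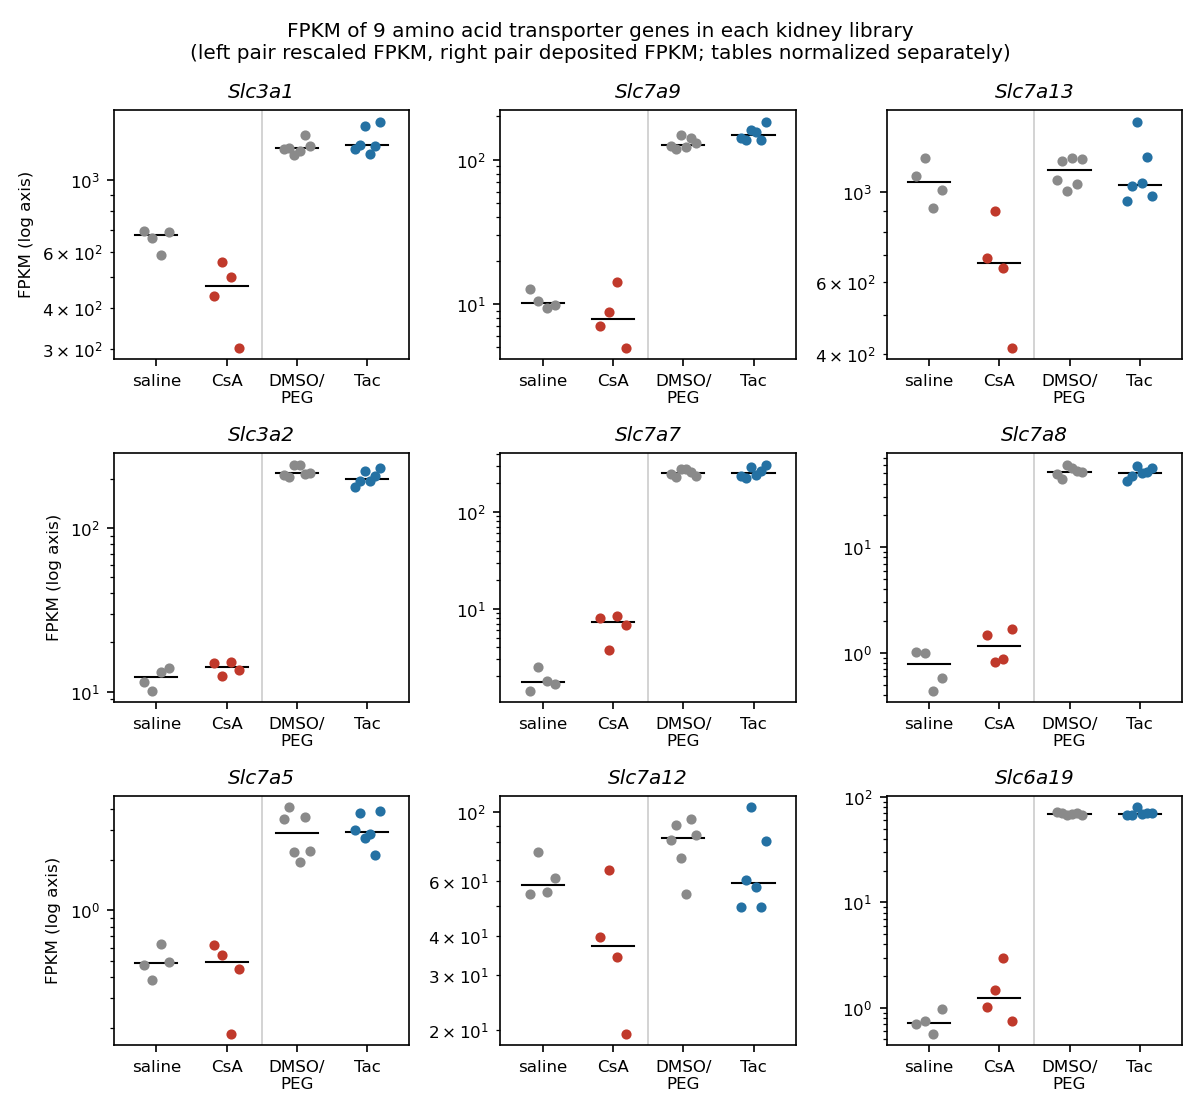
Each point is a library, with FPKM on a log axis, the black line the group median, and the 4 groups as saline vehicle, cyclosporine A (CsA), DMSO/PEG vehicle and tacrolimus (Tac). Slc7a7, Slc7a8 and Slc6a19 sit far lower in the left pair of groups than in the right pair, while Slc7a13 and Slc7a12 sit at similar heights in both vehicle groups.

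Slc7a7, Slc6a19 and Slc7a8 were among the genes lowest with saline relative to DMSO/PEG. The gap between the vehicle groups was taken as log2 of the saline mean over the DMSO/PEG mean, less the median of 13368 genes, and over those genes the 5th percentile was -1.53 and the 95th 1.30. Slc7a7 had a gap of -5.38, and 6 of the 13368 genes lay lower. Slc6a19 followed at -4.75 with 12 genes lower, and Slc7a8 at -4.32 with 17 lower. The lowest gene of all was the S1 marker Slc5a2, at -7.27, followed by Slc5a12 at -7.08, while the third S1 marker, Slc2a2, was at -2.32. The heavy chain Slc3a2 had a gap of -2.39, Slc7a9 one of -1.81 and Slc7a5 one of -0.77. The other members lay above the median gene, Slc3a1 at 0.86, Slc7a12 at 1.40 and Slc7a13, the S3 carrier, at 1.70. The 4 S3 markers ran from -1.29 to 1.82 and the 3 podocyte genes from -4.26 to -2.01. The 10 general proximal tubule markers spread from -6.63 for Slc4a4, the basolateral bicarbonate carrier, to 1.20 for Slc17a3, an apical anion carrier. Because the tables were normalized separately, these gaps are a description of levels with no test.

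**Figure D2:**
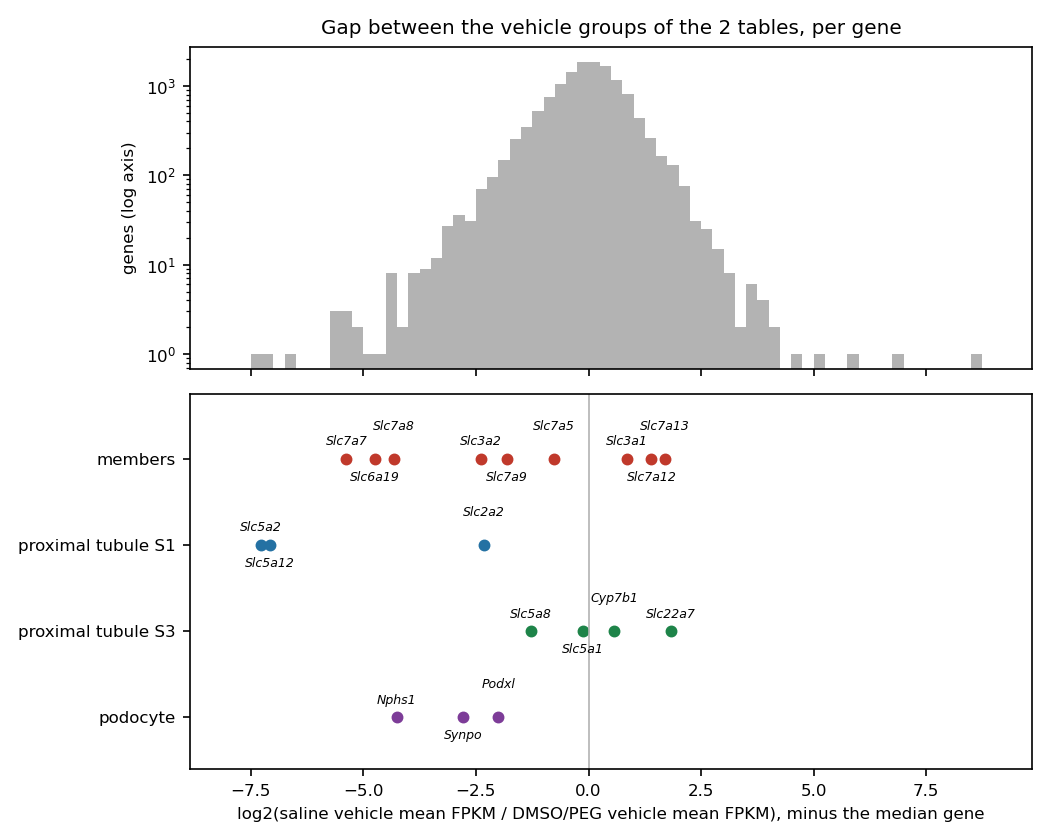
The upper panel counts genes (log axis) by the log2 ratio of saline to DMSO/PEG vehicle mean FPKM less the median gene, and the lower panel places the members and 3 marker lists on the same axis. Slc7a7, Slc6a19 and Slc7a8 lie between -5.38 and -4.32, the S1 markers between -7.27 and -2.32, the podocyte genes between -4.26 and -2.01, and Slc7a13 lies at 1.70.

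Of the heavy chains, the apical Slc3a1 (chromosome 6, 8284878 to 8318674, plus strand, as deposited) was below its vehicle in all 4 cyclosporine A libraries. Rescaled FPKM was 697, 662, 586 and 690 with saline and 438, 556, 500 and 302 with cyclosporine A. The log2 difference was -0.59 (SE 0.18), on the log2(FPKM + 1) scale used for all differences between a drug and its vehicle other than chain ratios, which understates changes of low genes. The groups did not overlap, and the lowest value was that of cyclosporine A replicate 4, the library with the highest mitochondrial share. The basolateral heavy chain Slc3a2 (chromosome 1, 224906554 to 224921092, minus strand) was 11.5, 10.1, 13.1 and 14.03 with saline and 14.9, 12.4, 15.1 and 13.5 with cyclosporine A, a log2 difference of 0.19 (SE 0.12) with overlapping groups. The sign of that difference depends on the scaling, since on deposited FPKM it was -1.05 (SE 0.29).

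The apical light chains lay on the same side as Slc3a1, to different degrees. Slc7a13 (chromosome 5, 33784715 to 33805616, plus strand) had rescaled FPKM of 1100, 1218, 917 and 1015 with saline and 690, 899, 652 and 414 with cyclosporine A. Its log2 difference was -0.72 (SE 0.22), and the groups did not overlap, though cyclosporine A replicate 2 came close to saline replicate 3. Abundance made this the best counted member, with 11498 to 155706 fragments per library. Slc7a9 (chromosome 1, 91716383 to 91738494, plus strand) was 12.7, 10.5, 9.39 and 9.80 with saline and 6.98, 8.77, 14.1 and 4.95 with cyclosporine A. Its difference of -0.33 (SE 0.25) came with overlapping groups, the highest value of all 8 libraries being that of cyclosporine A replicate 3. Slc7a12, a light-chain-like carrier of neutral amino acids whose heavy chain is not known (chromosome 2, 88559702 to 88660449, minus strand), was 54.8, 74.2, 55.4 and 61.5 with saline and 39.8, 65.1, 34.4 and 19.4 with cyclosporine A. That is a difference of -0.73 (SE 0.29) with overlap, cyclosporine A replicate 2 again being the highest of its group.

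Slc7a7 stood out among the basolateral light chains (chromosome 15, 33013504 to 33051129, minus strand). Its rescaled FPKM was 1.42, 2.52, 1.80 and 1.65 with saline and 7.98, 3.72, 8.31 and 6.75 with cyclosporine A, a log2 difference of 1.40 (SE 0.22) that was known when the genes were chosen. All 4 cyclosporine A libraries lay above all 4 saline libraries, and replicate 2 was the lowest of the treated ones. The values rest on few fragments, 174, 186, 155 and 154 with saline and 271, 181, 349 and 163 with cyclosporine A. On deposited FPKM, which counts mitochondrial fragments in the total, the same libraries gave 2.85, 3.19, 2.75 and 2.84 with saline and 5.00, 3.08, 6.21 and 2.89 with cyclosporine A. There the groups overlapped and the difference was 0.39 (SE 0.25), so replicates 2 and 4 were at the saline level on that scale. Even the highest rescaled value, 8.31 FPKM, was far below the 226 to 310 FPKM of the 12 libraries in the tacrolimus table.

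The neighbouring gene Slc7a8 (chromosome 15, 33369216 to 33428973, minus strand), 318 kb from Slc7a7, was lower still. Rescaled FPKM was 1.01, 0.986, 0.437 and 0.580 with saline and 1.46, 0.812, 0.876 and 1.67 with cyclosporine A, a difference of 0.33 (SE 0.17) with overlapping groups. On deposited FPKM its difference was -0.33 (SE 0.19). Slc7a5 (chromosome 19, 54693959 to 54722563, minus strand) was 0.473, 0.384, 0.633 and 0.492 with saline and 0.621, 0.540, 0.184 and 0.447 with cyclosporine A, a difference of -0.05 (SE 0.12) on 15 to 113 fragments per library. The cotransporter Slc6a19 (chromosome 1, 32199810 to 32220045, plus strand) was 0.706, 0.744, 0.567 and 0.966 with saline and 1.01, 1.49, 2.96 and 0.756 with cyclosporine A. Its difference was 0.48 (SE 0.23) on rescaled and -0.15 (SE 0.24) on deposited FPKM. The groups overlapped, and the highest library was cyclosporine A replicate 3, which was also highest for Slc7a7 and Slc7a9. At such levels only large differences could be detected.

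**Figure D3:**
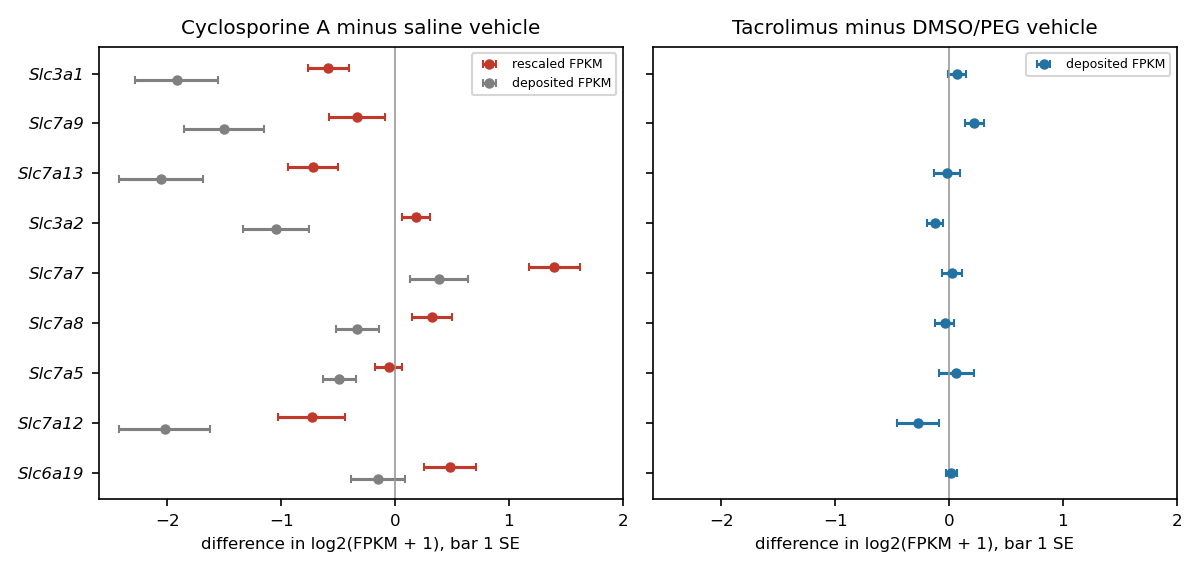
Points are differences in log2(FPKM + 1), drug minus vehicle, and bars 1 standard error, for cyclosporine A on rescaled and deposited FPKM (left) and tacrolimus (right). Slc7a7 is the highest point on the left on either scale, at 1.40 and 0.39, while all 9 members lie between -0.28 and 0.22 with tacrolimus.

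Counted over the members, 4 of 9 rescaled differences were positive and 5 negative, with a median of -0.05 against -0.00 over all 13454 genes tested. The groups did not overlap for 3 members, where 10.9% of all genes tested did not overlap. Slc7a7 was the 1 member higher, beside 4.81% of all genes, and Slc3a1 and Slc7a13 the 2 lower, beside 6.11%. By limma with Benjamini-Hochberg adjustment, 1 member (Slc7a7) passed an adjusted p under 0.05, against 0.609% of all genes called and 0.327% called higher, and nothing is read from either count because the members were chosen on this contrast. On deposited FPKM, 6 members passed, all lower, against 81.1% of all genes tested and 80.9% called lower, and the median of all genes was -0.89. The members below that median were Slc3a2 at -1.05, Slc7a9 at -1.51, Slc3a1 at -1.92, Slc7a12 at -2.02 and Slc7a13 at -2.06, and Slc7a5 was at -0.49.

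Markers of the proximal tubule segments were read in the same libraries, beside the mitochondrial share given above. Summed over the 3 S1 markers, rescaled FPKM was 2.85, 4.11, 2.96 and 2.46 with saline and 5.90, 5.43, 6.49 and 1.84 with cyclosporine A. Slc5a2 rose, with a log2 difference of 0.93 (SE 0.16, limma adjusted p = 0.0385), on 62, 89, 91 and 24 fragments, while Slc5a12 at 0.47 and Slc2a2 at -0.03 did not pass. Cyclosporine A replicate 4 had the lowest S1 sum of all 8 libraries together with a Slc7a7 value of 6.75 rescaled FPKM (2.89 as deposited). Summed over the 4 S3 markers, rescaled FPKM was 12.5, 11.98, 7.80 and 8.30 with saline and 4.46, 9.91, 8.17 and 4.01 with cyclosporine A. None of the 4 passed, all 4 differences were negative and their median was -0.42, beside -0.72 for Slc7a13. Of the 10 general proximal tubule markers 8 were negative as well, with a median of -0.31 and 0 passed, among them the water channel Aqp1 at -0.72 and the endocytic receptors Lrp2 and Cubn, both at -0.58. On deposited FPKM 4 of 4 S3 markers (median -1.32), 8 of 10 general markers (median -1.58) and Slc2a2 (-0.91) were called lower, where 80.9% of all genes were. The S1 marker Slc5a2 was called higher there (0.45, SE 0.18, limma adjusted p = 0.0284), as were 26 of all 13454 genes tested. Slc5a12 was at 0.19 and not called. Replicate 2 had the highest S3 sum of the cyclosporine A group, as it had the highest Slc7a13, Slc7a12 and Slc3a1. The part of segment composition and of the mitochondrial share in these differences was not tested.

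**Figure D4:**
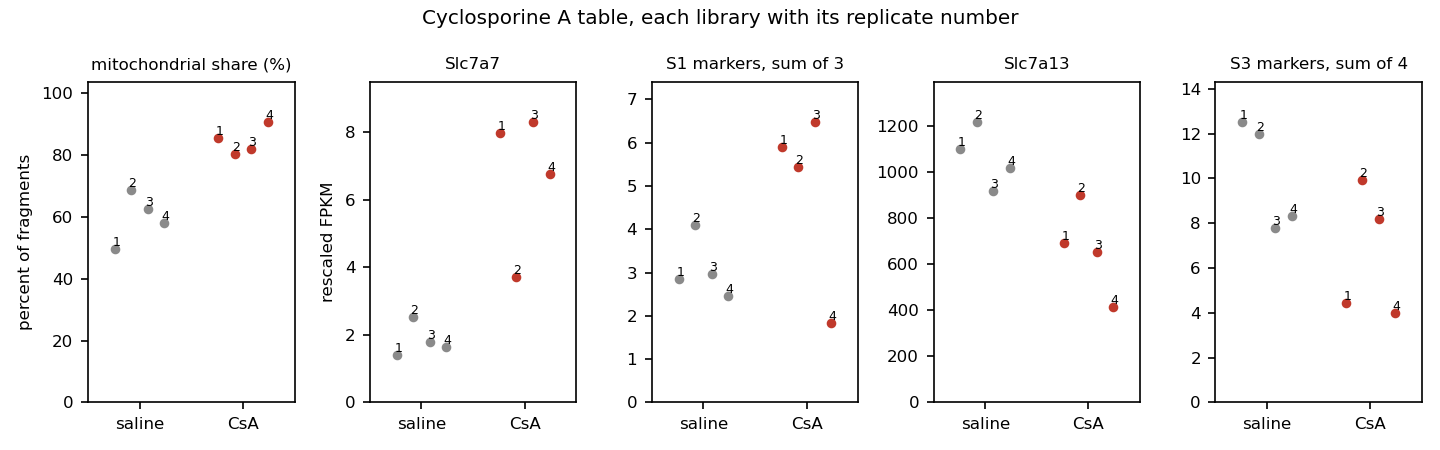
Each point is a library of the cyclosporine A table with its replicate number; the panels show the mitochondrial share in percent and, in rescaled FPKM, Slc7a7, the S1 marker sum, Slc7a13 and the S3 marker sum. Cyclosporine A replicate 4 has the highest mitochondrial share at 90.8%, the lowest S1 sum at 1.84, the lowest Slc7a13 at 414 and a Slc7a7 value of 6.75.

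Macrophages also express Slc7a7, so their markers were read beside it. Of 13 macrophage genes 11 could be tested with cyclosporine A, 6 higher and 5 lower with a median log2 difference of 0.02, and 0 passed. On deposited FPKM all 11 were lower, 7 of them called, with a median of -0.51. Of all genes tested, 80.9% were called lower there, and their median of -0.89 was further down. Their summed rescaled FPKM ran from 49.8 to 111 with saline and from 53.2 to 158 with cyclosporine A, and Cd163 was listed at 0 in all 4 saline libraries. With tacrolimus 12 of 13 were lower, with a median of -0.16, and 0 passed. Red blood cell genes (4 of 4 higher with cyclosporine A, median 1.40, 0 passed) varied more, with sums of 348 to 951 and 552 to 5646 FPKM. On deposited FPKM 3 of the 4 were higher, with a median of 0.07. On rescaled FPKM the summed markers of 2 other cell types separated the groups, and as deposited the urothelial sums overlapped. Urothelial genes (3 of 3 tested higher, median 1.19) summed to 1.62 to 3.84 rescaled FPKM with saline and 6.75 to 15.97 with cyclosporine A, and Upk1a, a plaque protein of the bladder and renal pelvis lining, rose by 1.51 (SE 0.18, limma adjusted p = 0.0197). On deposited FPKM its difference was 0.57 and did not pass (limma adjusted p = 0.0704). Genes of the thick ascending limb (3 of 4 lower, median -0.53) summed to 309 to 558 with saline and 147 to 244 with cyclosporine A. Umod, its main secreted protein, fell by 1.36 (SE 0.25, limma adjusted p = 0.0491), and Slc12a1, its salt carrier, had a difference of -0.95 (adjusted p = 0.0512). On deposited FPKM all 4 of these genes were called lower, beside 80.9% of all genes, with a median of -1.82 against -0.89. Cldn16, a paracellular channel, turned from 0.21 to -0.81. The part of these cell types in the members' values was not tested.

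Of 25 genes in 4 lists (other light chains, apical and other cotransporters, basolateral uniporters, and partners with peptide carriers), 20 were tested with cyclosporine A and 18 had negative rescaled differences. Their median was -0.25, and 0 passed. An unadjusted limma p under 0.05 was found for 5 of the 20, and for 2181 of all 13454 genes tested. The lowest was the peptide carrier Slc15a2, at -0.68 (SE 0.19), and the highest the cotransporter Slc38a4, at 0.27 (SE 0.18). On deposited FPKM, 19 of the 20 passed as lower, with a median of -1.21. Of all genes tested, 80.9% were called lower on that scale, with a median of -0.89. Among 11 genes of the amino acid response and its serine synthesis targets, Phgdh, the first enzyme of serine synthesis, rose by 1.12 (SE 0.20, limma adjusted p = 0.0464). It was the 1 gene called of 10 tested there, with a list median of 0.19. On deposited FPKM the difference of Phgdh was 0.08 (SE 0.29). There 7 other genes of the 10 were called lower, beside 80.9% of all genes, with a list median of -1.02 against -0.89. Gatm, the first enzyme of creatine synthesis, which uses arginine, had a difference of 0.95 (SE 0.21) and an adjusted p of 0.0760 in the same limma fit, and of -0.37 (SE 0.33) on deposited FPKM, and 0 of the 6 genes of arginine and creatine synthesis passed. The calls of list genes, Slc5a2 included, depend on single libraries: without saline replicate 3 or 4, 0 list genes passed.

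Tacrolimus left every member within 0.28 of its vehicle on the log2 scale, and 0 of 9 were called by limma, against 0.303% of the 15493 genes tested. Only Slc7a9 had an unadjusted limma p under 0.05 (0.0177, adjusted p = 0.425), as had 1329 of the 15493 genes. The groups were separated for 0 of 9, against 0.975% of all genes. Slc7a9 had a lowest, median and highest value of 118, 128 and 148 FPKM with vehicle and 137, 149 and 184 with tacrolimus. Its difference was 0.22 (SE 0.08, 95% interval 0.05 to 0.40), with overlapping groups. For Slc7a7 the values were 233, 254 and 282 with vehicle and 226, 253 and 310 with tacrolimus. That is a difference of 0.03 (SE 0.09) and an interval of -0.16 to 0.21. Depth was not limiting, with 14294 to 20359 Slc7a7 fragments per library.

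The abundant S3 carrier Slc7a13 had 1006, 1135 and 1212 FPKM with DMSO/PEG and 951, 1045 and 1494 with tacrolimus, a difference of -0.02 (SE 0.11, interval -0.26 to 0.23). Its heavy chain Slc3a1 had 1198, 1254 and 1378 against 1201, 1280 and 1518, a difference of 0.07 (SE 0.08). The highest Slc7a13 and Slc7a12 values were both those of tacrolimus replicate 3. Slc7a12 was the most variable abundant member, with 54.5, 82.8 and 94.9 FPKM against 49.4, 59.1 and 104, a difference of -0.28 (SE 0.18, interval -0.68 to 0.12). Slc3a2 ran from 207 to 246 and from 179 to 235 (-0.12, SE 0.07), Slc7a8 from 44.7 to 60.6 and from 42.6 to 58.6 (-0.04, SE 0.09). The least abundant member, Slc7a5, ran from 1.95 to 4.11 and from 2.14 to 3.94 (0.06, SE 0.15). Slc6a19 was the steadiest, from 67.7 to 72.3 with vehicle and from 67.3 to 79.8 with tacrolimus (0.02, SE 0.05). Of the other amino acid carriers 24 were tested, 16 higher and 8 lower with a median of 0.04, and 0 passed. An unadjusted limma p under 0.05 was found for 3 of them, and for 1329 of all 15493 genes tested. Among all lists the genes called with tacrolimus were Slc12a3, Trpm6 and Klhl3 of the distal convoluted tubule, all lower, and no gene of the proximal tubule lists.

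A light chain needs its heavy chain, and the ratio of their FPKM within a library does not depend on the scaling between libraries. With tacrolimus the ratio of Slc7a7 to Slc3a2 rose slightly, from 1.15 to 1.27, a log2 difference of 0.15 (exact 2-sided permutation test over 924 arrangements, p = 0.00649, adjusted over 5 ratios p = 0.0325). It was 1.08 to 1.19 in the 6 vehicle libraries and 1.16 to 1.32 in the 6 tacrolimus libraries, so the groups overlapped through tacrolimus replicate 2. Without vehicle replicate 2, 4 or 6 the adjusted p was 0.0541. The ratios of Slc7a8 to Slc3a2 (log2 difference 0.08, exact p = 0.0325, adjusted p = 0.0812) and of Slc7a9 to Slc3a1 (0.15, exact p = 0.0671, adjusted p = 0.112) did not pass, though without vehicle replicate 3 both did (adjusted p = 0.0216, permutation test). Those of Slc7a13 to Slc3a1 (-0.09) and Slc7a5 to Slc3a2 (0.21) shared an adjusted p of 0.474 in the exact test. Since Slc3a2 stands under 3 of the ratios, they are not independent. Taken singly, on the log2(FPKM + 1) scale, Slc3a2 differed by -0.12 (SE 0.07) and Slc7a7 by 0.03 (SE 0.09), and neither was called by limma. Fat cell markers were lower with tacrolimus in the same libraries (5 of 5, median -0.88, 0 passed). By limma 4 of them had an unadjusted p under 0.05, as had 1329 of all 15493 genes tested. Fat cell sums were 67.4 to 262 FPKM with vehicle and 34.9 to 144 with tacrolimus, and the part of these markers in the ratios was not tested.

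In the cyclosporine A table the same ratio of Slc7a7 to Slc3a2 had a mean log2 of -2.75 with saline, or 0.149, and -1.12 with cyclosporine A, or 0.459. That difference of 1.62, a description with no test, holds without any rescaling, and the groups did not overlap. Both ratios were under those of the tacrolimus table, where Slc7a7 exceeded Slc3a2. For Slc7a13 to Slc3a1 the ratio was 1.61 with saline and 1.46 with cyclosporine A, against 0.887 with DMSO/PEG, so by group means the S3 light chain exceeded its heavy chain in the cyclosporine A table and not in the tacrolimus table. The ratio of Slc7a9 to the same heavy chain was 0.0160 with saline, 0.0185 with cyclosporine A and 0.103 with DMSO/PEG. The other 4 ratios overlapped between cyclosporine A and saline.

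**Figure D5:**
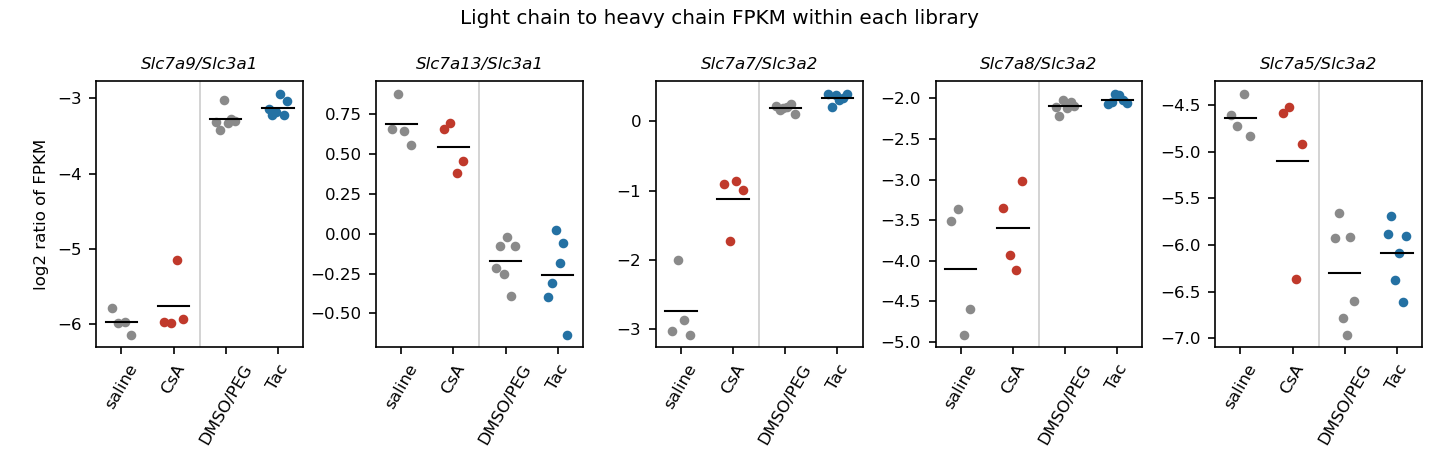
Points are log2 ratios of light to heavy chain FPKM within each library, and lines are group means, for saline vehicle, cyclosporine A (CsA), DMSO/PEG vehicle and tacrolimus (Tac). The ratio of Slc7a7 to Slc3a2 averages -2.75, -1.12, 0.20 and 0.34 in that order, and that of Slc7a13 to Slc3a1 is above 0 in the left pair of groups.

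The genes most like Slc7a7 by Pearson's r of log2(FPKM + 1) differed between the tables. Over 12 libraries and 12888 genes of the tacrolimus table they were Uck1 (0.88), Clpb (0.88), F2 (0.86), Susd2 (0.86) and Cdip1 (0.85), and Slc7a8 came close at 0.84. Among the other members r was 0.77 for the heavy chain Slc3a2 and 0.20 for Slc7a13, and the libraries share depth and composition. Over 8 libraries and 9743 genes of the cyclosporine A table they included Ddc (0.99), Trim35 (0.99), Baz2b (0.98) and Aldh1a1 (0.98). Ddc, which makes dopamine in the proximal tubule, averaged 1.08 rescaled FPKM with saline and 2.11 with cyclosporine A; Aldh1a1, a retinoic acid enzyme, averaged 45.2 and 71.1. Among the members of that table r was 0.58 for Slc3a2 and -0.79 for both Slc3a1 and Slc7a13. There a high r follows in part from both genes being higher in the same 4 libraries.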

How the data were processed

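Bulk RNA sequencing of rat kidney (NEBNext libraries, per the labels' protocols) gave 2 tables of FPKM that the authors deposited, each holding a drug and its vehicle. HISAT2 and the rn6 build are named in the submitters' processing notes; the counting program, annotation and strand setting are not given in the sources used here, so overlapping genes and the near-identical copies of Slc7a13 and Slc3a2 that RefSeq lists are uncertain. Positions are as deposited.

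FPKM was turned back into fragments with the listed gene length and the value of 1 fragment: 74.6% of cyclosporine A table values and 100.0% of tacrolimus table values came out whole within 0.01, the rest with a shorter length (for Slc7a8, 4014 for 4162 bases in the cyclosporine A table). Those of the tacrolimus table already followed median-of-ratios factors; those of the cyclosporine A table did not and were rescaled with such factors. limma 3.58.1 (R 4.3.3) with a trend was fitted per table to log2(FPKM + 1) of all genes that reached 10 fragments, at the median library size, in as many libraries as the smaller group, and 15 in total. Benjamini-Hochberg adjustment ran over all tested genes, called at 0.05. Chain ratios were compared by exact permutation; the test scripts were run on simulated data first. Alternatives were deposited values or scaling to non-mitochondrial fragments (cyclosporine A), equal totals or voom on recovered fragments (tacrolimus), a pseudocount of 0.1 (of 1 for chain ratios), no filter, a replicate block and leaving out each library.

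Members and lists were chosen with earlier results of these data known. Named were the members, list genes called (or the most abundant ones), and the 5 genes most like Slc7a7, of which 1 is not reported here. Podocyte and medullary lists were added after the values were seen. In either comparison 0 of 3 podocyte and 0 of 3 medullary genes tested passed. On deposited cyclosporine A values 1 and 3 were called lower, beside 80.9% of all genes.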

Additional observations from a re-analysis of the deposited data

Results flagged for a closer look

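Slc6a19 in tacrolimus replicate 3 stood apart from its group: 79.8 FPKM, where the other 5 tacrolimus libraries ran from 67.3 to 71.2. It is the 1 value so marked among 36 groups of member values checked for a single distant library, where chance marks about 5%. The same library had the highest Slc7a13 and Slc7a12 of its group.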

How the results depend on the processing

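With tacrolimus, 0 of 9 members passed under any of 17 alternatives, with 36 to 52 genes called in all. With cyclosporine A the counts moved. On deposited FPKM 10911 genes, 6 members and 71 list genes passed; without the filter on low values 1, 0 and 0; with a pseudocount of 0.1, 2 list genes. Scaling to non-mitochondrial fragments gave 114, 1 and 6, with Slc7a7 at 1.48. Leaving out 1 library in turn gave 1 to 139 genes, 0 to 1 members and 0 to 6 list genes, against 82, 1 and 4 with all libraries. The log2 difference of Slc7a7 with cyclosporine A ran from 0.39 to 1.77 over 13 alternatives, a description since the gene was chosen on it. With tacrolimus the log2 difference of Slc7a7 to Slc3a2 ran from 0.132 to 0.175 when 1 library was left out, that of Slc7a9 to Slc3a1 from 0.115 to 0.204 and that of Slc7a8 to Slc3a2 from 0.0613 to 0.10. The log2 difference of the ratio of Slc7a5 to Slc3a2 with cyclosporine A, which has no test, turned from -0.46 to 0.56 with a pseudocount of 1 on both chains. The cause of these changes was not tested.

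Replicate numbers gave no clear sign of pairing, though so few pairs cannot exclude it. Deviations of same-numbered libraries correlated at -0.15 to 0.21 over 4 pairs with cyclosporine A and at -0.15 to 0.18 over 6 pairs with tacrolimus. Of these pairs, 1 and 2 correlated best with their own number. With the replicate block, 6 genes, 0 members and 0 list genes passed with cyclosporine A, and 44 genes and 0 members with tacrolimus. The depth of the cyclosporine A libraries limits Slc7a5, Slc7a7, Slc7a8 and Slc6a19, which rest on 15 to 349 fragments there.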
